A study of Mus musculus with 12 samples.

Results

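Memory-phenotype CD8 T cells are recognised by a small set of surface proteins, receptors and factors, and 10 of their genes were chosen by name: Cd44, Ly6c1, Ly6c2, Ly6a, Ly6e, Il2rb, Eomes, Cxcr3, Il18r1 and Ccl5. Of these, 9 had a row among the 11581 genes of the table for unstimulated cells, and Ly6c1 had none. The rule that left these genes is not stated, and nothing is said here about the level of a gene that lacks a row. The series compares CD8 T cells labelled with a scurfy or a wild-type allele of Foxp3. Scurfy is a loss-of-function allele of this factor, which specifies regulatory T cells. In both groups the donor named for its Foxp3 allele carries OT-1, a transgenic T cell receptor for the SIINFEKL peptide of ovalbumin. The question addressed here is how these 9 transcripts differ with the Foxp3 allele before any peptide is given.

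The scurfy group came from chimeric mice that received mixed bone marrow of OT-1 Foxp3Scurfy CD45.1+/2+ and of CD45.2+ donors, the wild-type group from chimeras of OT-1 Foxp3wt CD45.1+/2+ and CD45.2+ donors. The strain is labelled CD45.2+ C57BL/6 J in both, and cells were purified as CD8 T cells 2 months after reconstitution. How cells of the OT-1 donor were separated from those of the other donor, and whether a library is 1 mouse or a pool, is not given in the labels, and every p-value here covers spread among the deposited samples alone, some of which could be technical. Each unstimulated group has 3 libraries, and the groups given peptide for 6 h were not analysed here. Libraries held 8852518 to 23149523 reads over the table, wild-type library 2 being the deepest. Foxp3 had no row, and the scurfy label was therefore not tested on its transcript. The labelled cell type was checked on 6 CD8 T cell markers, all with a row: Cd8b1 stood at 21344 to 21911 normalized counts and Cd8a at 6873 to 8310. The sum of the 6, which include 3 Cd3 chains, was 51654 to 59574 in scurfy and 46549 to 47270 in wild type. Of the 6, Cd3d, a chain of the T cell receptor complex, rose from 6837 ± 281 to 11635 ± 1898 normalized counts (SD, n = 3 each, log2 fold change 0.76, limma adjusted p = 0.00551, and up to 0.0249 without 1 library). Values are the authors' normalized counts, that is reads divided by 1 scaling factor per library.

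In mice, naive CD8 T cells become memory-phenotype cells after antigen, or without it under the cytokine IL-15, and then raise the hyaluronan receptor CD44, the IL-2 and IL-15 receptor beta chain CD122, which Il2rb encodes, and the T-box factor Eomesodermin, which drives Il2rb. Such cells also carry Ly6C, a small protein tethered to the membrane by a lipid anchor and encoded by the neighbouring genes Ly6c1 and Ly6c2. They carry the chemokine receptor CXCR3 and the IL-18 receptor, and they hold ready messenger RNA for the chemokine CCL5. In bulk RNA, fewer cells of a type and less RNA per cell cannot be told apart.

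Ly6c2 was the member that passed the test, and it has a near-identical neighbour without a row. The first 150 bases of both coding sequences, from GENCODE M21, are therefore shown, in lower case with the bases that differ between them in capitals.
Ly6c2: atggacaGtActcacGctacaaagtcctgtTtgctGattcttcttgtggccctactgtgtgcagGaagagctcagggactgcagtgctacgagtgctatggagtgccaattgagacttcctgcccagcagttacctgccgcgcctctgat
Ly6c1: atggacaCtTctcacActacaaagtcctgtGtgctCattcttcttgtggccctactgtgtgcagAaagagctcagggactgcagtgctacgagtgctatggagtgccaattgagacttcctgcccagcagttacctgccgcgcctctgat
The 393 coding bases differ at 9 positions (97.7% identical), and 6 of these lie in the stretch shown. Of all 50-base windows of the 822-base Ly6c2 transcript, 32.6% occur unchanged in a Ly6c1 transcript, and 29.9% of the windows in its last 300 bases do. The longest shared run is 188 bases. No source used here says how reads that fit both genes were counted, and the Ly6c2 values are uncertain to that extent.

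The 250 bases before the first listed start of Ly6c2 and of Cd44, the members with the largest rise and the largest difference downward, are shown from RefSeq on GRCm38.p6, both on the minus strand. The first lies at chr15:75111972-75112221 and the second at chr2:102901666-102901915.
Ly6c2 promoter: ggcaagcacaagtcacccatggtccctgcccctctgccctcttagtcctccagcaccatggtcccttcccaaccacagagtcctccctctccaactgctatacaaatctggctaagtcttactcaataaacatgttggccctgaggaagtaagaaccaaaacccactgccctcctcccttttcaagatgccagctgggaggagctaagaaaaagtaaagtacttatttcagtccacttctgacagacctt
Cd44 promoter: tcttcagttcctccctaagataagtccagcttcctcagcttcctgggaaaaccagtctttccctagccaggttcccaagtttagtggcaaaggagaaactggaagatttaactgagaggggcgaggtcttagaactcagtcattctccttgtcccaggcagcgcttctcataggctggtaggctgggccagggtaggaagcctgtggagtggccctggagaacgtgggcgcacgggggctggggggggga
Windows were found for 6 of the 10 genes. Each was searched on both strands for the interferon gamma activated site TTCNNNGAA, the interferon response element core GAAANNGAA, the T-box site TCACACCT and the forkhead site TGTTTAC, which occur in 7.02%, 7.13%, 1.12% and 3.17% of all 32851 promoter windows of this length. Neither window printed here holds any of these letters, and they hold no capitals for that reason. Among the other members, the Eomes window held GAAANNGAA, and TTCNNNGAA occurred at 1 of 3 starts of Il18r1. A match or its absence describes these letters only.

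Of the 9 memory-phenotype genes with a row, Ly6c2 rose in scurfy cells and the other 8 did not pass the threshold, an adjusted p of 0.05 in limma with Benjamini-Hochberg adjustment over all 11581 genes. Of all genes in the table, 4.47% passed, with 2.12% higher and 2.35% lower in scurfy, and 1 call among 9 genes is too few to read against these shares. Ly6c2 was likewise the 1 member called by edgeR on recovered reads, which called 4.71% of all genes, and with a trend on exonic length removed, where 2.61% were called. The log2 fold changes, which are scurfy minus wild type of normalized counts + 1, lay between -1.31 for Cd44 and 0.90 for Ly6c2. Their median was -0.04, beside 0.01 over all genes. The median size of the difference was 0.30, beside 0.25 over all genes. An unadjusted p under 0.05 was reached by 3 of the 9, Ly6c2, Ly6e and Cd44, and by 21.2% of all genes. In the same 3 the libraries of the groups did not overlap, as was the case for 27.1% of all genes (13.4% higher and 13.7% lower in scurfy).

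**Figure D1:**
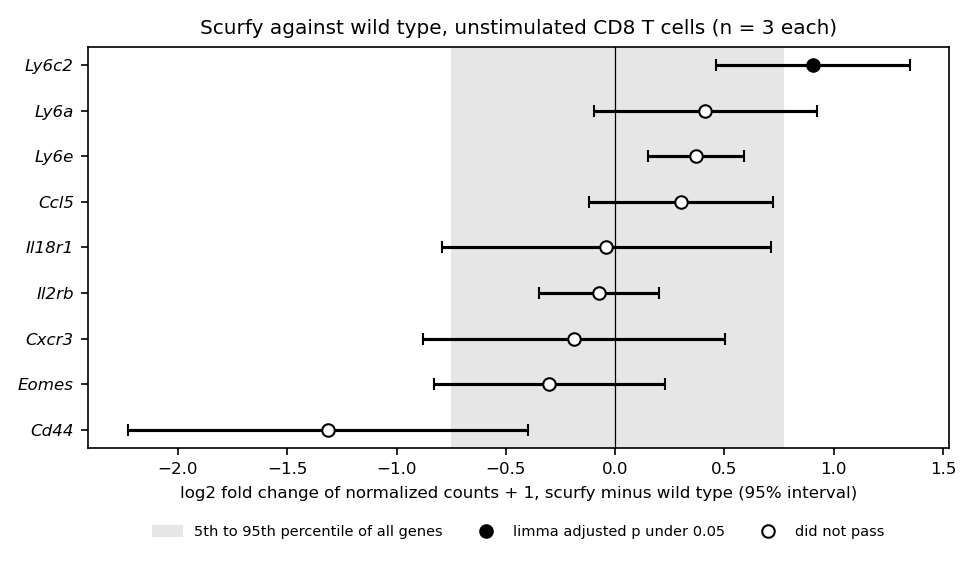
Log2 fold change of each memory-phenotype transcript with its 95% interval (x axis, scurfy minus wild type, n = 3 each); the grey band spans the 5th to the 95th percentile of all genes, from -0.75 to 0.77. Ly6c2 at 0.90 is the filled point that passed the test, and Cd44 at -1.31 lies farthest to the left with a wide interval.

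CD44 binds hyaluronan and helps T cells hold on in inflamed tissue, and it is the marker most used to tell memory-phenotype from naive cells. Its transcript stood at 13.3, 18.3 and 16.5 normalized counts in scurfy libraries 1 to 3 and at 50.5, 45.4 and 30.2 in wild-type libraries 1 to 3. Every scurfy library lay below every wild-type library, as for 13.7% of all genes. The means were 16.1 ± 2.53 and 42.1 ± 10.6 (SD, n = 3 each), 2.62-fold lower in scurfy, and the log2 fold change was -1.31 (95% interval -2.23 to -0.40). The adjusted p in limma was 0.0933, so the difference did not pass. Over the other settings it lay between 0.0502 on library totals alone and 0.237 without wild-type library 2. Cd44 ranked 992 of 11581 genes by p, although 97.8% of genes had a smaller difference. Few reads lie behind these values: the scurfy libraries held 11, 15 and 14 Cd44 reads and the wild-type libraries 38, 94 and 36. Sampling alone gives a coefficient of variation of 30.2% at 11 reads, wider than the 15.8% seen between the scurfy libraries. The authors' deposited table gives a log2 fold change of -1.38 and no adjusted p for this gene.

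Ly6C marks memory-phenotype and recently stimulated CD8 T cells. Ly6c2 stood at 374, 334 and 340 normalized counts in the scurfy libraries and at 185, 250 and 139 in the wild-type libraries. The scurfy values were close together and all above the wild-type values, which spread widely. Means were 350 ± 21.4 and 191 ± 55.8 (SD, n = 3 each), 1.83-fold higher in scurfy, with 871 and 823 reads behind them. The log2 fold change was 0.90 (SE 0.21, 95% interval 0.46 to 1.35, limma adjusted p = 0.0266). The call held without wild-type library 2 (adjusted p = 0.0183) and ended without any of the other libraries, with adjusted p of 0.0704, 0.0681 and 0.0595 without scurfy library 1, 2 and 3, and of 0.0628 and 0.0903 without wild-type library 1 and 3. It also ended when a trend on the length of the longest coding transcript was removed (0.66, adjusted p = 0.0940), a fit in which no member and 2.1% of all genes passed. DESeq2 on recovered reads gave 0.86 (adjusted p = 0.00385), past its threshold, as 8.9% of the genes it tested were. The authors' deposited comparison gave the same values for Ly6c2. Ly6C is found on monocytes too: of 10 monocyte and myeloid markers 2 had a row, Cst3 and Cd68, and their summed level was 1463 to 1579 normalized counts in scurfy and 850 to 1172 in wild type. Cst3 rose by 0.59 (limma adjusted p = 0.0202), a call that ended without scurfy library 2 or 3 or wild-type library 2 (adjusted p up to 0.0815), on library totals, and with the trend on exonic length removed (0.44, adjusted p = 0.0830), whereas Lyz2, Csf1r and Ccr2 had no row. The part of such cells in the Ly6c2 difference was not tested.

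Ly6e and Ly6a lie in the same cluster on chromosome 15, are induced by interferons and are carried by many lymphocytes. Ly6e stood at 14950, 14379 and 15931 normalized counts in scurfy and at 11462, 11658 and 11897 in wild type. The groups were well apart and each was tight, with coefficients of variation of 5.20% and 1.87%. Its log2 fold change was 0.37 (95% interval 0.15 to 0.59) with a limma adjusted p of 0.0540, so it missed the threshold. DESeq2 on recovered reads gave 0.37 with an adjusted p of 0.00578, past its threshold, as 8.9% of the genes it tested were. The authors' deposited comparison gave the same log2 fold change and adjusted p. Leaving out 1 library gave limma adjusted p values of 0.0936 to 0.139 for Ly6e. On library totals alone the difference was 0.23 (limma adjusted p = 0.191). Ly6a, also known as Sca-1, stood at 351, 301 and 348 in scurfy and at 368, 258 and 164 in wild type. Its groups overlapped, since wild-type library 1 was the highest of all 6 and wild-type library 3 the lowest. The log2 fold change of Ly6a was 0.41 (95% interval -0.10 to 0.92, limma adjusted p = 0.339). Leaving out wild-type library 1 gave 0.69 and leaving out library 3 of that group 0.11, and it was 0.25 and 0.22 with the trend on exonic length or on the longest coding transcript removed.

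Il2rb encodes the chain through which IL-15 signals, and Eomes a factor that promotes its expression. Il2rb stood at 631, 603 and 609 normalized counts in scurfy and at 586, 643 and 716 in wild type, with the scurfy values inside the wild-type range. Its log2 fold change was -0.07 with a 95% interval from -0.35 to 0.20 (limma adjusted p = 0.785). Leaving out wild-type library 1 gave -0.14 and leaving out library 3 of that group -6.59e-05, and it was -0.21 on library totals and -0.05 and -0.01 with the exonic or the coding-transcript length trend removed. Of the 9 transcripts it varied least among scurfy libraries, with a coefficient of variation of 2.40%. That is below the 4.50% that sampling alone gives at the 494 reads of its lowest scurfy library. Eomes stood at 99.3, 85.4 and 76.8 in scurfy and at 114, 108 and 99.0 in wild type. The groups met at 1 point: scurfy library 1 lay just above wild-type library 3. The log2 fold change of Eomes was -0.30 (95% interval -0.83 to 0.23, limma adjusted p = 0.519), and each scurfy library rested on 65 to 82 reads.

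Cxcr3 and Il18r1 encode receptors that guide memory cells to inflamed sites and let them answer IL-18. Cxcr3 stood at 44.8, 40.3 and 61.5 normalized counts in scurfy and at 50.5, 52.7 and 62.1 in wild type, overlapping groups with a log2 fold change of -0.19 (95% interval -0.88 to 0.50, limma adjusted p = 0.782). It was -0.06 without scurfy library 2, -0.36 without scurfy library 3, -0.10 without wild-type library 3 and -0.32 on library totals. Il18r1 stood at 53.3, 105 and 100.5 in scurfy and at 132, 82.6 and 56.2 in wild type. Scurfy library 1 and wild-type library 3 were low and wild-type library 1 high, so the spread within each group was larger than the difference between them. The log2 fold change of Il18r1 was -0.04 (95% interval -0.79 to 0.71, limma adjusted p = 0.963). Without scurfy library 1 it was 0.27, and 0.27 also without wild-type library 1, so its sign depends on single libraries. It was -0.33 without wild-type library 3 and -0.18 on library totals.

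Ccl5 encodes a chemokine whose messenger RNA memory CD8 T cells store before stimulation. It stood at 1207, 1363 and 1123 normalized counts in scurfy and at 1428, 956 and 723 in wild type. Wild-type library 1 exceeded every scurfy library, and the other wild-type libraries lay below all of them. The log2 fold change was 0.30 (95% interval -0.12 to 0.72, limma adjusted p = 0.401). It was 0.56 without wild-type library 1 (adjusted p = 0.0680) and 0.07 without wild-type library 3. It was 0.17 on library totals and 0.08 with the trend on exonic length removed, and the trend on the longest coding transcript turned its direction (-0.08).

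**Figure D2:**
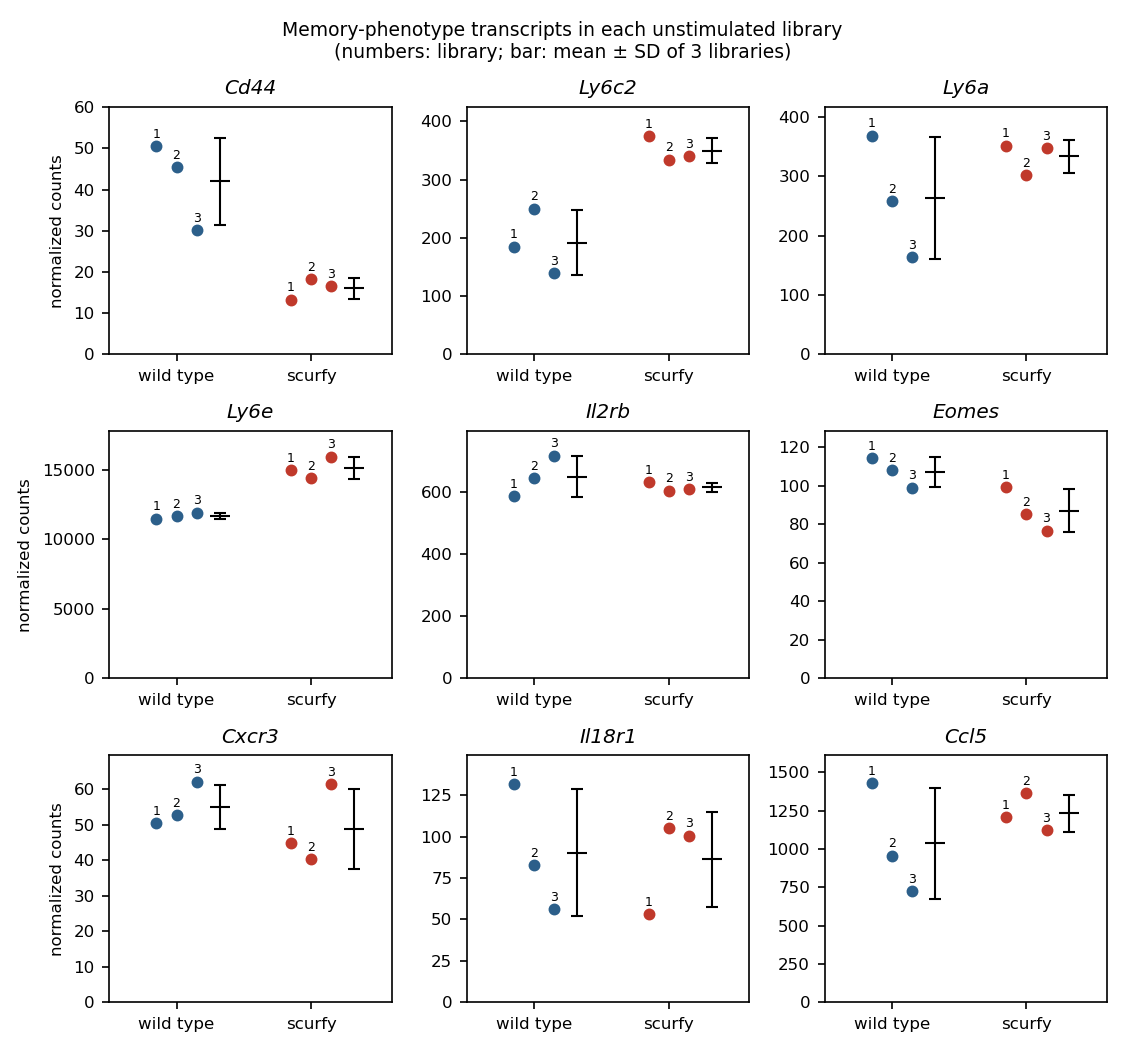
Normalized counts (y axis, from 0) of the 9 transcripts in each library, with the library number beside each point and the mean ± SD of 3 libraries as a bar. Cd44, Ly6c2 and Ly6e separate the groups, whereas for Ly6a and Ccl5 the wild-type libraries are spread over the whole range. For Il18r1 both groups are spread widely.

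The wild-type libraries differed among themselves along some of these genes. In 5 of the 9, Cd44, Ly6a, Eomes, Il18r1 and Ccl5, wild-type library 1 was the highest and library 3 the lowest of the wild-type libraries, beside 19.2% of all genes, a pattern looked for after the values were seen. The order of Eomes lies within sampling noise: its wild-type coefficient of variation was 7.18%, and sampling alone gives 10.8% at its lowest library. That of Cd44 was 25.1%, where sampling alone gives 16.7%. The highest wild-type value was 2.25 times the lowest for Ly6a, 2.34 times for Il18r1 and 1.98 times for Ccl5. In scurfy libraries the same ratios were 1.16 for Ly6a, 1.97 for Il18r1 and 1.21 for Ccl5. Ly6c2 followed another order, with wild-type library 2 highest, and Ly6e, Il2rb and Cxcr3 were highest in wild-type library 3. The markers thus did not rank the wild-type libraries in 1 common order.

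**Figure D3:**
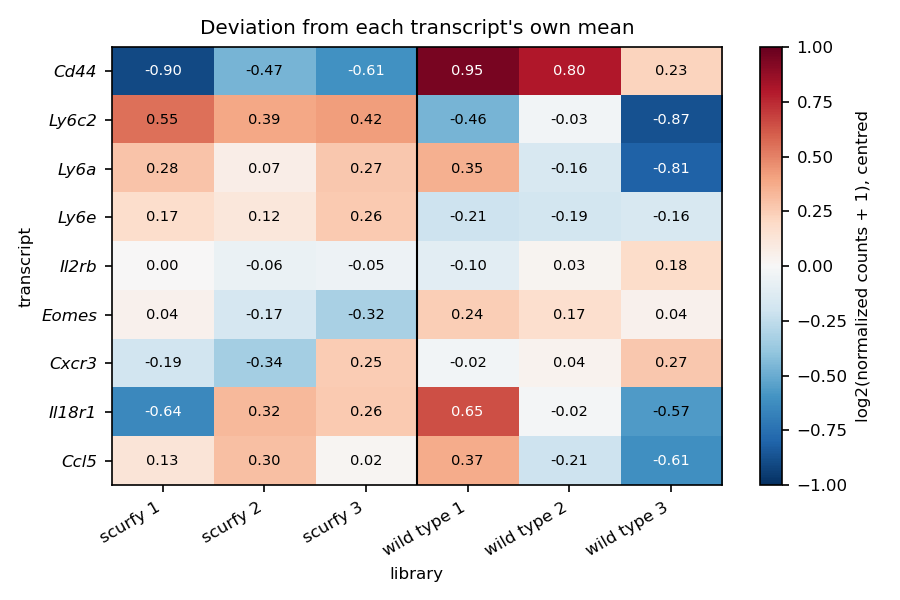
Deviation of each transcript (rows) in each library (columns) from its own mean, in log2 of normalized counts + 1, with scurfy libraries left of the line. Cd44 and Ly6c2 have opposite signs across the line, and wild-type library 3 is at -0.87 for Ly6c2, -0.81 for Ly6a and -0.61 for Ccl5.

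Levels between genes were compared per kilobase of exon, on the union of annotated exons. Per kilobase, Ly6e was highest at 3987 normalized counts (scurfy) and 3085 (wild type), followed by Ccl5 at 1282 and 1079 and Ly6a at 277 and 218. Il2rb followed at 143 and 151 and Ly6c2 at 128 and 69.9. Cxcr3 (28.2 and 31.8), Eomes (21.0 and 25.8) and Il18r1 (17.9 and 18.7) formed a low group, in which Eomes and Il18r1 differed by less than the SD of Il18r1. Cd44 was lowest at 2.37 and 6.21 in scurfy and wild type. On this length the order was the same in both groups. A retained-intron transcript lengthens Ly6c2 to 2740 bases, and per kilobase of the longest coding transcript (822 bases for Ly6c2) the order differed: Ly6c2 at 425 lay above Ly6a at 349 in scurfy, and at 233 below Ly6a at 276 in wild type. Reads were primed at the poly(A) tail, so they need not scale with length.

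The genes around these markers were examined in 8 lists by role. In the list of CD44 and adhesion genes all 16 had a row, 3 rose, 1 fell and 12 did not pass, with a median log2 fold change of 0.02. For this and the other lists, the shares of all genes to set beside such counts are 4.47% called, 2.12% higher and 2.35% lower. The integrin chain Itgb7, which pairs in gut-homing integrins, rose from 1670 ± 160 to 2408 ± 143 normalized counts (log2 fold change 0.53, limma adjusted p = 0.0177). Icam2, a ligand of LFA-1, rose by 0.47 and the adhesion receptor Cd2 by 0.43, while the LFA-1 chain Itgal fell by 0.50 (limma adjusted p = 0.0301, 0.0376 and 0.0254). All 4 calls depend on single libraries, with a highest adjusted p after leaving out 1 of them of 0.0680 for Itgb7, 0.101 for Itgal, 0.107 for Icam2 and 0.129 for Cd2. With the trend on exonic length removed Itgb7 kept its call (0.51, adjusted p = 0.0304), and 1 gene of the list passed.

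The Ly6 family list had a row for 6 of 21 genes, of which Ly6c2 rose and 5 did not pass. All 6 log2 fold changes were above 0, under library-total, TMM, edgeR and DESeq2 scaling and with either length trend removed as well, with a median of 0.58 beside 0.01 for all genes. Most of the family lacks a row, so this describes the 6 genes alone. Next to Ly6c2 and Ly6e, the smallest p belonged to Ly6k, whose mean was 61.5 ± 25.7 normalized counts for wild type and 112 ± 22.3 for scurfy, a log2 fold change of 0.92 (limma adjusted p = 0.116). In the list of 23 interferon-induced genes with a row, limma called none and edgeR none, DESeq2 called 3, and 5 had an unadjusted p under 0.05, beside 8.9% of all genes called by DESeq2 and 21.2% by unadjusted p, so the last count is near the background. Its median log2 fold change was 0.15, and 0.01 on library totals alone. B2m, the light chain of MHC class I, came closest at 0.67 (limma adjusted p = 0.0567).

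Of 15 IL-2 and IL-15 genes 1 fell and 14 did not pass, a count near the 4.47% of all genes called, with a median of 0.04. The gene that fell was Socs1, which encodes a feedback inhibitor of Janus kinases, by 0.60 on the log2 scale (2459 ± 274 normalized counts in wild type, 1650 ± 371 in scurfy, limma adjusted p = 0.0368). That call held without scurfy library 1 and ended without any other library, with an adjusted p of up to 0.130. The common gamma chain Il2rg, which pairs with the Il2rb product, stood at 10284 ± 430 in scurfy and 10025 ± 374 in wild type (adjusted p = 0.872), and Stat5b, the factor it activates, was at -0.03 on the log2 scale. None of 11 IL-18 and IL-12 genes passed in limma, edgeR or DESeq2, or had an unadjusted p under 0.05. Jak2 had the smallest p, with a log2 fold change of 0.21 (limma adjusted p = 0.461).

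Among 12 chemokine and trafficking genes with a row, 2 fell and 10 did not pass (2.35% of all genes fell), with a median of 0.03. Cxcr6, a chemokine receptor of tissue-resident and memory T cells, fell by 0.90 on the log2 scale, with 286 ± 31.5 normalized counts in wild type and 156 ± 41.2 in scurfy (limma adjusted p = 0.0333). Its call held without scurfy library 1 and ended without any other library, at an adjusted p of up to 0.119. S1pr1, which guides exit from lymph nodes, fell by 0.76 and stayed past the threshold without any 1 library (adjusted p up to 0.0328). The CCL4 transcript stood at 122 ± 33.6 in scurfy and 113 ± 35.6 in wild type, a difference smaller than the spread.

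For 17 naive and memory transcription factors with a row, limma called none and edgeR none, DESeq2 called 5, and 6 had an unadjusted p under 0.05, where the shares of all genes were 8.9% by DESeq2 and 21.2% by unadjusted p. Their median log2 fold change was -0.29, and 4 of 17 were above 0. The list mixes factors of naive and of memory cells, Eomes among them, so its median points toward neither. On library totals alone 6 of them passed, beside 8.02% of all genes (6.57% lower in scurfy). There the median of all genes moved from 0.01 to -0.13. With the trend on exonic length or on the longest coding transcript removed, the median of the 17 was -0.18 or -0.19 and none passed. Zeb1, a repressor that acts in effector and memory differentiation, had the smallest p at -0.53 (limma adjusted p = 0.0744). Tbx21, which encodes the other T-box factor of memory cells, had no row. Of 18 effector and killer cell genes 6 had a row: the cystatin gene Cst7 (1.13) and the granule protein gene Nkg7 (0.76) rose, the receptor chain gene Klrd1 fell by 0.65, and 3 did not pass, beside 4.47% of all genes called. Their limma adjusted p values were 0.0075, 0.00918 and 0.0339. Leaving out 1 library at a time ended neither the Cst7 nor the Nkg7 call (limma adjusted p up to 0.0348 and 0.0429), and that of Klrd1 reached 0.124.

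**Figure D4:**
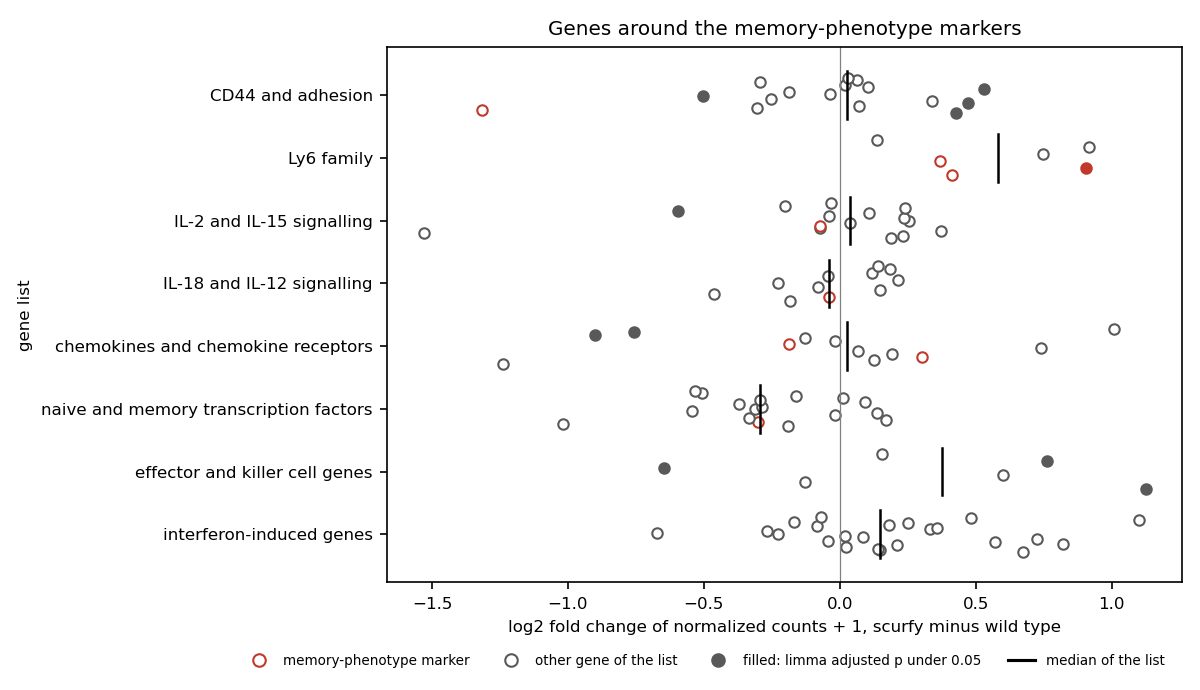
Log2 fold change (x axis, scurfy minus wild type) of each gene with a row in 8 lists (y axis), with filled points past the limma threshold and a black bar at the median of each list. The 6 Ly6 genes, of which Ly6c2 alone passed, lie right of 0 around a median of 0.58. Most of the 17 transcription factors, none of which passed, lie left of 0 around -0.29.

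Natural killer cells share Il2rb, Eomes and Ccl5 with memory-phenotype T cells, and of 7 natural killer markers 1, Fcgr3, had a row, at 37.5 to 115 normalized counts in scurfy and 61.1 to 78.9 in wild type. None of 4 CD4 T cell markers had a row, and of 6 erythroid markers 1 did, Car2, at 101 to 156 in scurfy and 232 to 315 in wild type. Of 10 B cell markers 7 had a row, with a summed level of 9895 to 11352 in scurfy and 10971 to 11753 in wild type, nearly all of it Ighm, and all 7 had a log2 fold change below 0. B cells and antigen-presenting cells can carry Cd44, whose own difference did not pass. Of the B cell markers, limma called H2-Aa, which belongs to MHC class II, lower in scurfy. Its scurfy libraries held 0 to 15.7 normalized counts and its wild-type libraries 57.2 to 84.1 (log2 fold change -3.97, limma adjusted p = 0.0164). That call ended without wild-type library 2 or 3 (adjusted p up to 0.0706). The part of such cells in the Cd44 difference was not tested.

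For the 4 leading markers, the 3 genes most like each were sought, with a mean of 50 normalized counts or more required, by the mean absolute difference between log2 profiles over the 6 libraries, each centred on its own mean. Nearest to Cd44 were Zfp667 at 0.21, Fgf13 at 0.21 and Nufip2 at 0.24, beside a median of 0.67 over 9188 genes. Of these Fgf13 fell in limma (log2 fold change -1.05, adjusted p = 0.0349). Nearest to Ly6c2 were a gene without a symbol, ENSMUSG00000115512, at 0.11, the RNA polymerase II subunit gene Polr2j at 0.12 and the mitochondrial ribosome gene Chchd1 at 0.12, beside a median of 0.48. Polr2j and Chchd1 rose, by 0.77 and 0.78. Nearest to Il2rb were the chaperone gene Calr at 0.02, Trim11 at 0.02 and Plekha5 at 0.03, and nearest to Eomes were Qdpr at 0.03, the ubiquitin ligase gene Cbl at 0.04 and 4833420G17Rik at 0.04, none of them called. These distances describe the 6 libraries alone. The profiles include the step between the groups, so a rise or fall near that of the marker follows from how these genes were chosen.

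**Figure D5:**
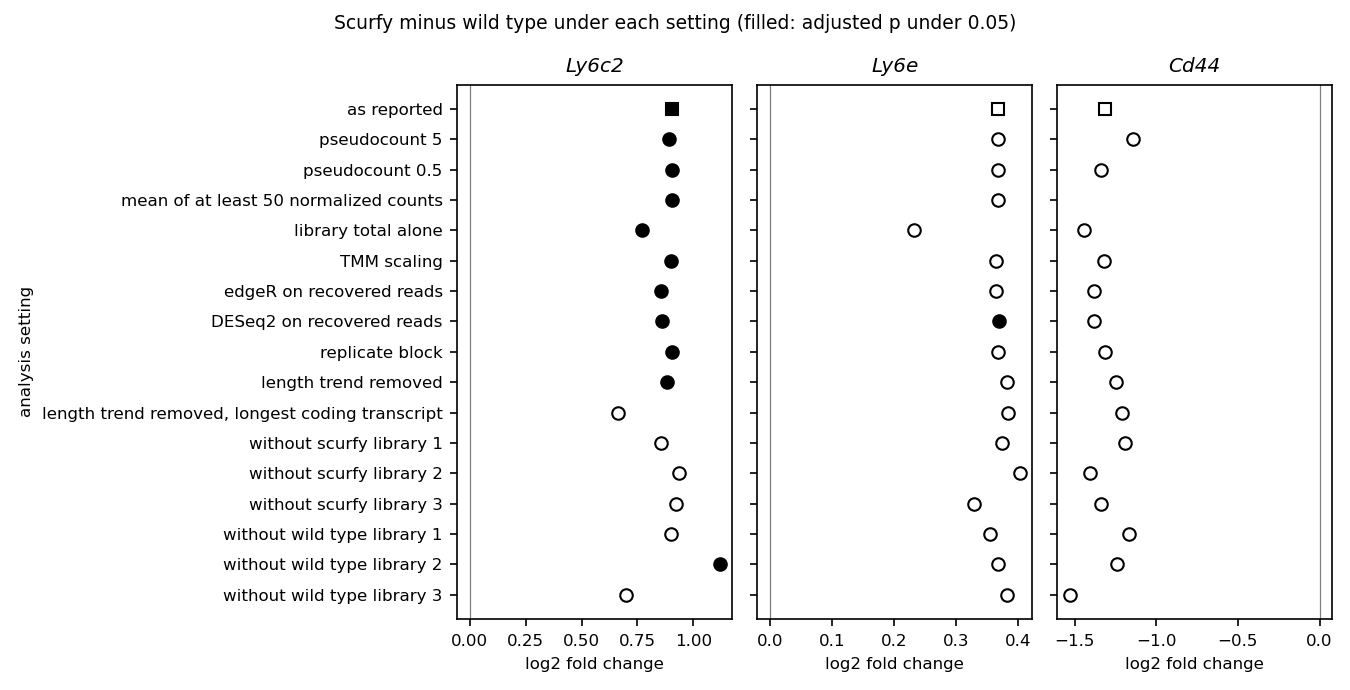
Log2 fold change (x axis) of Ly6c2, Ly6e and Cd44 under the reported fit and each alternative setting (y axis), filled where the adjusted p is under 0.05. Each gene keeps its direction in every setting drawn: Ly6c2 spans 0.66 to 1.12 and Cd44 -1.53 to -1.14, and Ly6e is filled under DESeq2 alone.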

How the data were processed

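Libraries were primed on poly(A) tails and amplified by in vitro transcription, per the labels' protocols. Trim Galore 0.4.4, STAR 2.6, featureCounts, edgeR, DESeq2 and build NCBIM37 are named in the submitters' processing notes, without a role or a rule on strand. The 2 deposited tables are identical, and their columns name the 6 unstimulated libraries. The deposited signal is a read count divided by 1 size factor per library: at a tolerance of 0.01 read, 100% of nonzero values came out as whole reads, called recovered reads. Per the file headers the authors' comparison gives a log2 fold change, a test score, a p-value and an adjusted p-value.

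A count test had been planned first, and as the files hold normalized values the one planned for those was used. This was limma 3.58.1 (R 4.3.3), fitted to log2(value + 1) with trend and robust moderation (4 residual and 10.7 prior degrees of freedom), no covariate, and Benjamini-Hochberg adjustment over 11581 genes at 0.05. edgeR 4.0.16 (quasi-likelihood) and DESeq2 1.42.0 on recovered reads were alternatives. Scripts were tested on simulated data. Genes named outside the 10 are, per list, up to 4 that passed, taken by p, or else the 1 of lowest p, plus the 3 of most similar pattern to Cd44, Ly6c2, Il2rb and Eomes; Il2rg, Stat5b, Ccl4, Tbx21 and the markers printed were named for their role. The members and lists were chosen with earlier results of these data known. Libraries of 1 group differed by more than sampling noise (chi-square 6.78 to 32.4 times its degrees of freedom). At this depth 3 reads are 1.45 to 3.99 normalized counts. Exonic lengths came from GENCODE M21.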

Additional observations from a re-analysis of the deposited data

How the results depend on the processing

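The 518 genes called became 929 on library totals alone, 891 with DESeq2 on recovered reads, 302 with the trend on exonic length removed and 243 with the trend on the longest coding transcript removed, the last chosen after seeing the data. Leaving out 1 library gave 113 to 403. Of the members, DESeq2 called 2, Ly6c2 and Ly6e, the trend on the longest coding transcript left 0, and leaving out 1 library gave 0 to 1, the call being kept without wild-type library 2. Removing the trend on the longest coding transcript also moved Ccl5 to a log2 fold change of -0.084 and Il18r1 to 0.022, and leaving out 1 library put Il18r1 between -0.33 and 0.27. Neither had passed. Other settings (pseudocounts of 5 and 0.5, a mean of at least 50, TMM, edgeR) kept each member's direction and call, though the filter at 50 left out Cd44. Samples that share a replicate number did not deviate together (correlations of 0.01, -0.04 and -0.07 across genes), and a replicate block gave 372 genes and 1 member. The sum of Ly6c1 and Ly6c2 was not run, as 1 has no row. The cause of these changes was not tested. Depth limits Cd44 most, at 11 to 94 reads a library.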
